A study of Homo sapiens with 60 samples.

Results

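Guibi-tang is a multi-herb decoction of East Asian medicine, and the comparison described here is that of its ethanol extract at the high dose with vehicle in SW1783 cells. The members were taken by title, which gave 6 of the 60 libraries of the series: 3 labelled ethanol extract of Guibi-tang (High dose) and 3 labelled Vehicle(DMSO). The high dose was 500 µg/mL for 24 h, and vehicle was 0.1% DMSO for 24 h in the sample records. The 3 libraries of the low dose, 20 µg/mL of the same extract for 24 h, served as a check of dose dependence, and 3 libraries of Saengmaek-san, another formula, at 500 µg/mL for 24 h were set beside the members for the named lists and genes. The series profiled messenger RNA of this line after ethanol extracts of herbal formulas linked to qi and of their single herbs, each at 3 doses. Libraries outside these 4 groups entered the filter on low counts, the scaling, the fit of the spread and the mean levels over the 60 libraries. No fold change is given for them. All groups are the same established human astrocytoma line, grown as a monoculture in L-15 medium with serum, so neurons, microglia and vessel cells are not part of the model. The labels do not say whether the replicates of a group were separate cultures. The p-values rest on the spread between replicate libraries, estimated over the groups of all 60 libraries, and this spread may be technical.

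In cells exposed to electrophiles the factor NRF2 escapes degradation and raises haem oxygenase, ferritin and the enzymes of glutathione and thioredoxin metabolism. Astrocytoma cells of this kind secrete a matrix rich in collagens, fibronectin and tenascin-C, and they pull on it through integrins, actin and filamin. Chaperones of the cytosol and the endoplasmic reticulum fold new proteins, and the transition from G2 to mitosis depends on a group of genes that dividing cells switch on together.

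The 6 libraries held 21378428 to 27413214 expected counts at the high dose and 25186538 to 26477754 in vehicle. The labelled cell type was checked against 17 astrocyte and glioma markers, of which 12 passed the filter on low counts. VIM, the intermediate filament vimentin, CD44, a hyaluronan receptor, and EGFR were abundant, whereas GFAP, the filament that defines mature astrocytes, averaged 0.0311 CPM at the high dose and 0.179 CPM in vehicle. S100B, AQP4, ALDH1L1 and SOX2 were also at or near 0. Of the other cell type markers, CD3E of T cells, CDH5 of endothelium, TTR of liver, DCX of young neurons and EPCAM of epithelium were at or near 0 in both groups. Others of the same lists were expressed. PTPRC averaged 0.694 CPM at the high dose and 10.4 CPM in vehicle. KRT18 averaged 15.0 CPM at the high dose and 131 CPM in vehicle. SNAP25, SYT1 and KDR averaged 10.8, 16.7 and 27.2 CPM at the high dose, against 30.0, 25.2 and 36.9 CPM in vehicle. Their part in the results was not tested. All Guibi-tang and Saengmaek-san libraries carry library names of set 13 and all vehicle libraries those of set D1, so the set and the extract cannot be told apart against vehicle, while the comparison with the low dose lies within set 13. Library 2 of the low dose stood apart from libraries 1 and 3, with a chi-square per degree of freedom over genes of 45.5 and 32.7, against 5.74 between libraries 1 and 3.

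Of 19366 genes tested, 9726 (50.2%) differed between the high dose and vehicle at an adjusted p under 0.05 (edgeR quasi-likelihood test, Benjamini-Hochberg). At the high dose 4577 genes (23.6%) were higher and 5149 (26.6%) were lower. By at least 1 log2 unit, 1530 genes (7.9%) were higher and 2282 (11.8%) lower, and by at least 2 log2 units 244 (1.26%) were higher and 480 (2.48%) lower. With 3 libraries against 3, the levels of 13432 genes (69.4%) did not overlap between the groups. Falls made up most of the calls among the most abundant genes. The genes were put in order of mean level and divided into 10 groups of 1936 or 1937. In group 10, the most abundant, 64.6% were lower and 8.11% higher, and the median log2 fold change was -0.62, or -0.15 when scaled by library totals. In group 5, 24.2% were lower and 38.6% higher, with a median of 0.20.

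**Figure D1:**
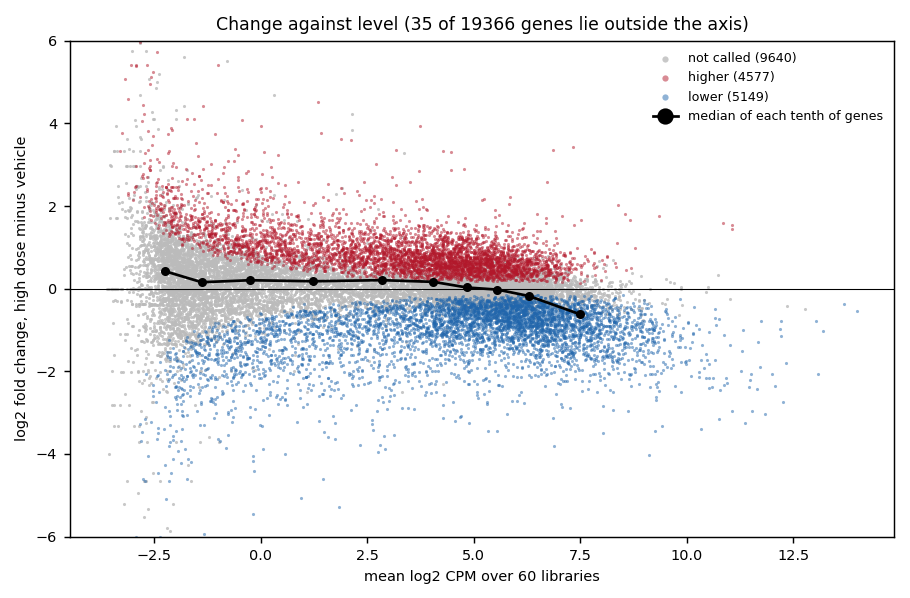
Log2 fold change of the high dose minus vehicle (vertical axis) against mean log2 CPM over the 60 libraries (horizontal axis) for each tested gene, with genes called higher in red, called lower in blue and the others in grey, and with the median of each of 10 groups by level in black. The median line lies at 0.20 in group 5 and at -0.62 in group 10.

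The 100 genes with most counts were chosen by mean CPM over the 60 libraries, of which 3 were of the high dose. These 100 genes took a smaller share of all counts at the high dose. Their share was 17.2%, 16.0% and 17.7% at the high dose, against 25.8%, 25.8% and 25.6% in vehicle, and the groups did not overlap (difference -8.77 percentage points, exact two-sided permutation p = 0.1, the smallest that 3 against 3 can give). The TMM factor, which corrects for such a shift, was 1.3 ± 0.0240 at the high dose and 0.937 ± 0.00502 in vehicle (SD, n = 3 each). Levels also followed transcript length, with a slope of log2 level on log2 length, relative to the vehicle mean, of 0.112 ± 0.00494 at the high dose and 0 ± 0.0204 in vehicle (SD, n = 3 each), and the part of this slope in the gene results was not tested beyond the fit that has it as a covariate. The choice of scale therefore sets the split of calls. With TMM the median log2 fold change of all tested genes was 0.027, while scaling by library totals, an alternative added after the data were seen, moved it to 0.49 and gave 8885 genes higher and 2631 lower. The change of scale moves all genes by nearly the same amount, so list counts and medians against vehicle are given on both scales. This holds for the 37 lists that are not of markers. Marker lists, gene families other than ZNF, and list counts against the low dose or Saengmaek-san are given with TMM only. So are the values and directions of single genes, except where library totals are named. In bulk RNA fewer cells and less RNA per cell cannot be told apart.

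The low dose gave the check of dose dependence. Against the low dose, 9923 genes (51.2%) were called at the high dose, 4611 (23.8%) higher and 5312 (27.4%) lower. By library totals that split was 8033 higher and 3110 lower. The low dose itself differed from vehicle in 477 genes (2.46%), of which 299 (1.54%) were higher and 178 (0.919%) lower, or 719 and 96 by library totals. That count depended on single libraries, with 53 calls without library 2 of the low dose, 301 without its library 3, and 144, 114 and 91 without vehicle library 1, 2 and 3. A call in the same direction against vehicle and against the low dose was found for 8209 genes (42.4%), of which 3677 (19%) were higher and 4532 (23.4%) lower. These were 84.4% of the calls against vehicle and 82.7% of those against the low dose, and 6 genes were called in opposite directions. Without library 2 of the low dose, 8734 genes were called against the low dose and 7817 in both comparisons. Both share the high-dose libraries, so the overlap is given as a count only.

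Among coding genes whose log2 CPM averaged 2 or more, whose groups did not overlap and that were also called the same way against the low dose, the largest rise was that of HMOX1, haem oxygenase 1, which breaks haem down to biliverdin, iron and carbon monoxide (ENSG00000100292, GRCh38, chromosome 22, 35380361 to 35394214, plus strand). HMOX1 had 620.3, 635 and 656 CPM at the high dose, against 61.2, 58.1 and 58.6 CPM in vehicle. Its level was 10.7-fold higher at the high dose (log2 fold change 3.43 ± 0.11, SE, adjusted p = 3.31e-26), and the groups were far apart. The low dose averaged 67.6 CPM, and its difference from vehicle was not called.

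RND3, an atypical small GTPase that loosens actin stress fibres, had 647, 626 and 547 CPM at the high dose, against 62.0, 57.5 and 59.1 CPM in vehicle, a log2 fold change of 3.35 ± 0.15 (adjusted p = 2.80e-21). GDF15, a stress-induced cytokine of the TGF-beta superfamily, had 39.2, 37.6 and 39.0 CPM at the high dose, against 3.96, 3.57 and 3.69 CPM in vehicle, a log2 fold change of 3.37 ± 0.18 (adjusted p = 8.64e-19). THBD, thrombomodulin, the thrombin receptor that starts the protein C anticoagulant pathway, had 92.5, 93.9 and 91.4 CPM at the high dose, against 8.41, 8.48 and 10.6 CPM in vehicle, a log2 fold change of 3.34 ± 0.18 (adjusted p = 3.97e-19). In each of these genes the lowest high-dose library lay several-fold above the highest vehicle library.

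SIK1, a salt-inducible kinase that restrains CREB coactivators, changed by 2.91 ± 0.19, as elsewhere a log2 fold change with its SE. IFIT2, an interferon-induced RNA-binding protein, changed by 2.86 ± 0.21, and KLF11, a Krüppel-like transcriptional repressor, by 2.7 ± 0.30. KCNC4, a voltage-gated potassium channel subunit, changed by 2.59 ± 0.12, ITPRIP, a protein that binds the inositol trisphosphate receptor, by 2.59 ± 0.13, and BCL7A, a subunit of BAF chromatin remodelling complexes, by 2.51 ± 0.13. The rule by which these genes were picked required a higher call against vehicle and against the low dose. None of the 6 was called at the low dose against vehicle. The pseudogene transcript NMRAL2P had the largest rise by the rule (3.61 ± 0.16) and was also called at the low dose, where it was 0.96 log2 units from vehicle. BEST1, a chloride channel, changed by 2.58 ± 0.37, and at the low dose by 1.29 (adjusted p = 0.0495).

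**Figure D2:**
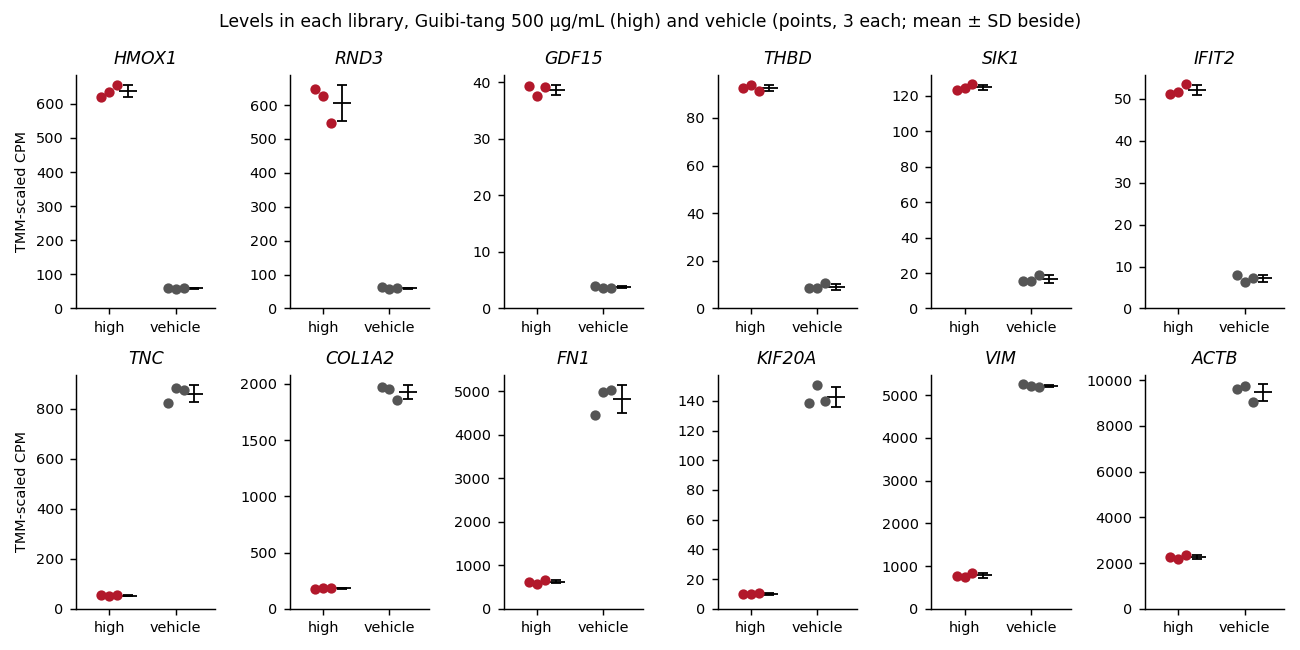
TMM-scaled CPM (vertical axis, from 0) in each library of the high dose (red, left) and vehicle (grey, right) for 6 genes that rose and 6 that fell, with the mean ± SD beside the 3 points of each group. HMOX1 lies between 620 and 656 CPM at the high dose, against 58.1 to 61.2 CPM in vehicle, and TNC between 49.5 and 54.6 CPM, against 821 to 884 CPM.

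By the same rule the largest fall was that of TNC, tenascin-C, a matrix glycoprotein that gliomas and wounded tissue secrete (ENSG00000041982, GRCh38, chromosome 9, 115019578 to 115118257, minus strand). TNC had 53, 49.5 and 54.6 CPM at the high dose, against 821, 884 and 874 CPM in vehicle. It was 16.4-fold lower at the high dose (log2 fold change -4.04 ± 0.33, adjusted p = 1.37e-13), and the low dose averaged 622 CPM.

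KIF20A, the mitotic kinesin of the central spindle, had 9.77, 9.76 and 10.9 CPM at the high dose, against 138, 151 and 139.6 CPM in vehicle, a log2 fold change of -3.81 ± 0.15 (adjusted p = 4.20e-23). MAGED1, an adaptor of neurotrophin receptor p75 signalling, had 76.0, 71.1 and 76.3 CPM at the high dose, against 781, 846 and 795 CPM in vehicle, a log2 fold change of -3.44 ± 0.16. TENM2, teneurin-2, a transmembrane adhesion protein of neurons, had 37.5, 33.3 and 42.0 CPM at the high dose, against 396, 438 and 437 CPM in vehicle, a log2 fold change of -3.49 ± 0.28. The rule required that no library of the high dose reach the lowest vehicle library in any of these genes.

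The other 8 of the 12 largest falls follow, and the rule required a lower call against the low dose for each. SLC38A4, a neutral amino acid transporter, changed by -3.95 ± 0.24, GBP2, an interferon-induced GTPase, by -3.79 ± 0.12, and PADI2, a peptidylarginine deiminase, by -3.78 ± 0.18. PADI2 was also lower at the low dose (-0.70, adjusted p = 0.00734). COL15A1, a basement membrane collagen, changed by -3.55 ± 0.24, EPHA3, an ephrin receptor found in glioma, by -3.45 ± 0.32, and KLHL4, a kelch-like protein, by -3.44 ± 0.25. C4A, complement C4, changed by -3.57 ± 0.21, although reads of its near-identical copy C4B may be split between both. PTPRC, the leukocyte phosphatase CD45, had 0.656, 0.546 and 0.882 CPM at the high dose, against 9.89, 11.1 and 10.3 CPM in vehicle (-3.89 ± 0.38), while CD3E was at 0 in all of these libraries.

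**Figure D3:**
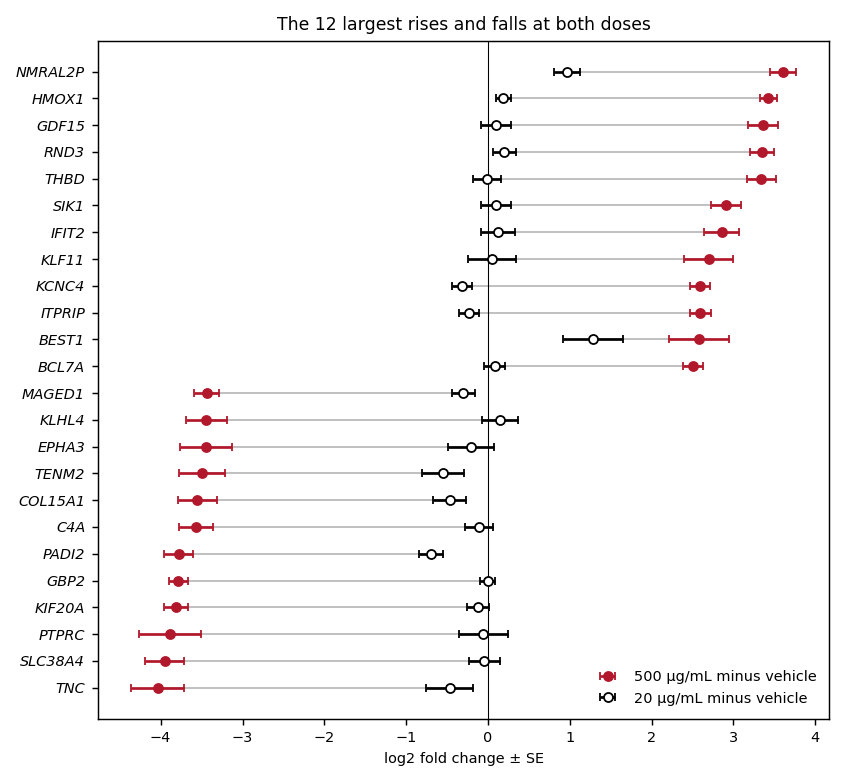
Log2 fold change ± SE of the 12 largest rises and 12 largest falls, for 500 µg/mL minus vehicle (filled red) and 20 µg/mL minus vehicle (open black). HMOX1 lies at 3.43 for the high and 0.19 for the low dose, TNC at -4.04 and -0.47, and both comparisons share the vehicle libraries.

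**Figure D4:**
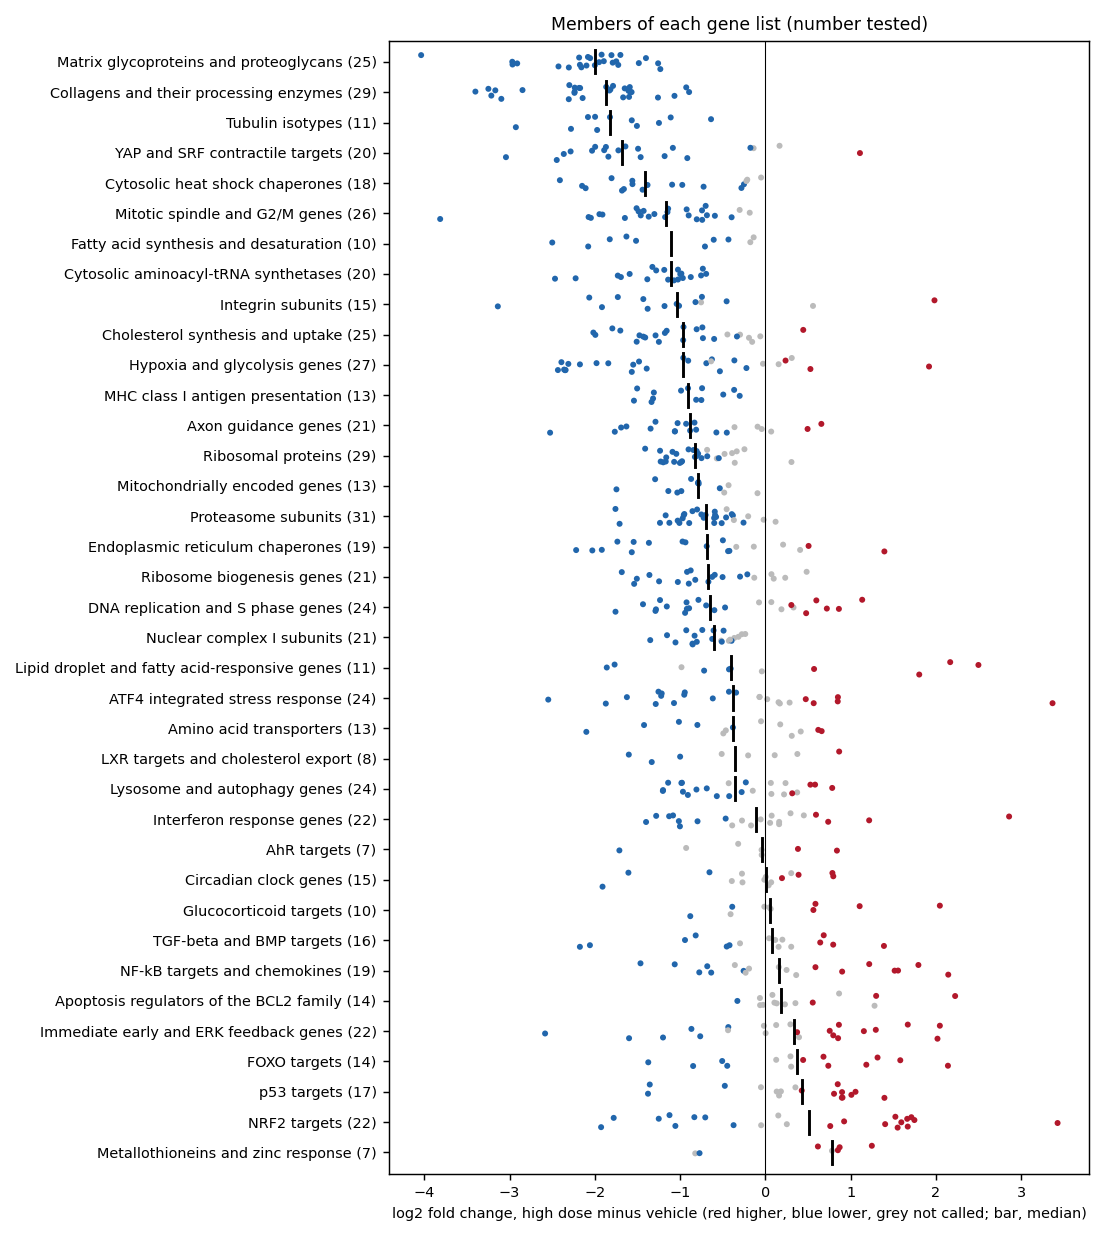
Log2 fold change of the high dose minus vehicle for each tested member of the 37 gene lists, 1 row per list with its number of tested members, ordered by the median (black bar). Red points are called higher, blue lower and grey not called, and the medians run from -2.0 for the matrix list to 0.78 for the metallothionein list.

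Genes of the extracellular matrix fell together. Of the collagens and their processing enzymes, all 29 tested members fell, with a median log2 fold change of -1.87 (by library totals 0 rose and 28 fell, median -1.40). Among matrix glycoproteins and proteoglycans, all 25 tested members fell, with a median log2 fold change of -2.0 (by library totals 0 rose and 25 fell, median -1.53). Of all tested genes 23.6% were higher and 26.6% lower, and the counts of each list are to be read against these shares. The shares depended on level, with 64.6% lower and 8.11% higher in group 10, the most abundant, and 41.8% and 18.3% in group 9. The lists were not matched for level, so for lists of abundant genes the shares of these groups are the nearer ones. Both chains of type I collagen, the main fibre-forming collagen, fell. COL1A2 had 176, 189 and 183 CPM at the high dose, against 1970.3, 1958 and 1856 CPM in vehicle (-3.40 ± 0.13, adjusted p = 1.38e-23), and COL1A1 had 412, 418 and 454 CPM at the high dose, against 4124, 4134 and 3937 CPM in vehicle (-3.25 ± 0.12, adjusted p = 3.73e-24). COL3A1, the chain of type III collagen, changed by -3.21 ± 0.17. Among glycoproteins FN1, fibronectin, which links integrins to the matrix, had 622, 579 and 650.2 CPM at the high dose, against 4455, 4986 and 5038 CPM in vehicle (-2.97 ± 0.35), and VCAN, the proteoglycan versican, had 89.9, 82.6 and 88.4 CPM at the high dose, against 596, 703 and 738 CPM in vehicle (-2.96 ± 0.35). TGFBI, a TGF-beta-induced matrix protein, was 1214, 1199 and 1279.7 CPM at the high dose, against 5328, 5178 and 4839 CPM in vehicle (-2.05 ± 0.067). All tested members of both lists were also called lower than at the low dose. COL1A1 was also called at the low dose itself, -0.48 from vehicle.

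The receptors and the contractile apparatus that act on the matrix followed the same direction. Among integrin subunits, 1 of 15 tested members rose, 12 fell and 2 were not called, with a median log2 fold change of -1.04 (by library totals 2 rose and 8 fell, median -0.57). ITGB4, the hemidesmosome subunit, changed by -3.14 ± 0.13 and ITGA11, a collagen receptor subunit, by -2.07 ± 0.14, whereas ITGB3, the beta chain of a vitronectin receptor, had 49.0, 49.9 and 48.2 CPM at the high dose, against 11.3, 12.7 and 13.1 CPM in vehicle and rose (1.98 ± 0.34). Among targets of YAP and SRF, 1 of 20 tested members rose, 17 fell and 2 were not called, with a median log2 fold change of -1.68 (by library totals 3 rose and 16 fell, median -1.21). FLNA, filamin A, which crosslinks actin, had 627, 624 and 646 CPM at the high dose, against 5159, 5147 and 5308 CPM in vehicle (-3.04 ± 0.13, adjusted p = 5.94e-22). TAGLN, transgelin, changed by -2.45 ± 0.25 and ACTA2, smooth muscle actin, by -2.36 ± 0.10. The member that rose was LATS2, a Hippo pathway kinase that restrains YAP (1.11 ± 0.20). Of the tubulin isotypes, all 11 tested members fell, with a median log2 fold change of -1.82 (by library totals 0 rose and 10 fell, median -1.35), led by TUBA1A (-2.93 ± 0.14), TUBA1B (-2.28 ± 0.097) and TUBA4A (-2.08 ± 0.19). Tubulin isotypes are near-identical in sequence, so their separate values depend on how reads were assigned. ACTB, beta-actin, often used as a reference transcript, had 2284, 2158 and 2364 CPM at the high dose, against 9614, 9747 and 9032 CPM in vehicle (-2.06 ± 0.11), and VIM had 775, 731 and 835 CPM at the high dose, against 5246, 5211 and 5184 CPM in vehicle (-2.74 ± 0.099).

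The promoter of FLNA is shown because it holds a CArG box, the site SRF binds. CArG boxes were searched on both strands, with overlapping matches allowed, from 250 bases before to 50 after the start of each gene in the RefSeq promoter table (GRCh38.p14). They were found in 3 of the 17 target promoters in the table (ACTG2, FLNA and SRF). By comparison, 1.29% of 27305 promoters of the same length held one, and 1.07% of the 12495 promoters of tested genes. With TMM all 3 genes were lower at the high dose, by log2 fold changes of -2.28, -3.04 and -0.18 (adjusted p = 0.0266 for SRF). The SRF change was smaller than the shift of the all-gene median by library totals, from 0.027 to 0.49. The stretch is chrX:154374615-154374884, minus strand, written 5′ to 3′ from 250 bases before to 20 after the start, and the capitals mark the box.
FLNA: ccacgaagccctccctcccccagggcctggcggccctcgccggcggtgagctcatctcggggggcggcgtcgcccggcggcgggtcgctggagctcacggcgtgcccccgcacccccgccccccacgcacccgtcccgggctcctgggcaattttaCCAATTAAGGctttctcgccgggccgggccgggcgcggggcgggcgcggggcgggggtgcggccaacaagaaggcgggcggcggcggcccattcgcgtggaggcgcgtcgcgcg

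Most genes of mitosis fell. Among mitotic spindle and G2/M genes, 0 of 26 tested members rose, 24 fell and 2 were not called, with a median log2 fold change of -1.16 (by library totals 1 rose and 17 fell, median -0.69). Besides KIF20A, CDC20, the activator of the anaphase-promoting complex, had 54.8, 53.8 and 61.6 CPM at the high dose, against 246, 237 and 234 CPM in vehicle (-2.07 ± 0.19), and MKI67, the proliferation marker Ki-67, had 100.2, 87.5 and 97.1 CPM at the high dose, against 351, 406 and 419.9 CPM in vehicle (-2.05 ± 0.33). PLK1, the polo-like kinase of mitotic entry, had 49.0, 44.4 and 55.7 CPM at the high dose, against 157, 154 and 156 CPM in vehicle (-1.65 ± 0.096, adjusted p = 6.72e-18). CDK1, the kinase that drives mitosis, was not called against vehicle (-0.18 ± 0.09, adjusted p = 0.0885).

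The element TTTGAA, the core of the cell cycle homology region (CHR) bound by the MuvB complex, was searched on both strands of the same promoter windows. It was found in 14 of the 21 mitotic promoters in the table. By comparison, 15.4% of all 27305 promoters held it, and 10.3% of the 12495 promoters of tested genes. Of the 14 genes 13 fell, in a list of which 24 of 26 fell, so that count says nothing about the element. PLK1 and CCNB2, cyclin B2, are shown since in both the element begins 29 bases before the start. The PLK1 stretch is chr16:23678639-23678908 and that of CCNB2 (-1.14 ± 0.067) is chr15:59104896-59105165, both on the plus strand, with the element in capitals.
PLK1: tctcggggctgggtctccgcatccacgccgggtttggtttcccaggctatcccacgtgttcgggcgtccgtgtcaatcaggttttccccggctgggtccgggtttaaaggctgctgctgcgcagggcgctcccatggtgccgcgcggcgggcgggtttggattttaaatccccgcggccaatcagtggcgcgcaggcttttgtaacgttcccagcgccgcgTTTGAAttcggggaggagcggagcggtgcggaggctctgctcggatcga
CCNB2: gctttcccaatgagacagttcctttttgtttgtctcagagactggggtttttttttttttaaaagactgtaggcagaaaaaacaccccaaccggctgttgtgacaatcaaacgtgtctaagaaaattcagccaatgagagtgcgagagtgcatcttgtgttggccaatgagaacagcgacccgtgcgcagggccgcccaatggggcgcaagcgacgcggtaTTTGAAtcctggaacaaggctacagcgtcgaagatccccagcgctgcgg

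Among DNA replication genes, 6 of 24 tested members rose, 14 fell and 4 were not called, with a median log2 fold change of -0.65 (by library totals 10 rose and 12 fell, median -0.18), where the share that rose was near the 23.6% of all tested genes. RRM1, a subunit of ribonucleotide reductase, had 48.2, 51.7 and 49.5 CPM at the high dose, against 169, 171 and 166 CPM in vehicle (-1.76 ± 0.15), MCM7, a subunit of the replicative helicase, changed by -1.44 ± 0.14, and POLA1, the catalytic subunit of polymerase alpha, by -1.29 ± 0.21. The members that rose included regulators of the transition from G1 to S phase. CCNE2, cyclin E2, had 50.2, 45.5 and 48.4 CPM at the high dose, against 20.0, 23.4 and 22.1 CPM in vehicle (1.13 ± 0.29), CCNE1 changed by 0.86 ± 0.079 and the transcription factor E2F1 by 0.72 ± 0.20, with GINS1, POLE2 and RFC4 also higher than vehicle. RFC4 was not called against the low dose.

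Among p53 targets, 9 of 17 tested members rose, 3 fell and 5 were not called, with a median log2 fold change of 0.43 (by library totals 11 rose and 2 fell, median 0.90). MDM2, the ligase that degrades p53, had 117, 123 and 109.8 CPM at the high dose, against 40.4, 44.6 and 47.7 CPM in vehicle (1.40 ± 0.14), and CDKN1A, the cyclin-dependent kinase inhibitor p21, had 45.9, 47.6 and 47.0 CPM at the high dose, against 24.8, 21.0 and 21.6 CPM in vehicle (1.06 ± 0.14). TP53I3, a quinone oxidoreductase, FDXR, ferredoxin reductase, and XPC, a DNA damage sensor, fell, with log2 fold changes of -1.38 ± 0.23, -1.36 ± 0.25 and -0.48 ± 0.12, the last of them not called by library totals. Among apoptosis regulators of the BCL2 family, 3 of 14 tested members rose, 1 fell and 10 were not called, with a median log2 fold change of 0.18 (by library totals 10 rose and 0 fell, median 0.65). PMAIP1, the pro-apoptotic BH3-only protein NOXA, had 169, 167 and 147 CPM at the high dose, against 36.1, 34.4 and 32.7 CPM in vehicle (2.22 ± 0.12) and was also higher at the low dose, by 0.48. BCL2, which protects from apoptosis, changed by 1.3 ± 0.21, BCL2L11, the BH3-only protein BIM, by 0.56 ± 0.15, and BMF, another BH3-only protein, by -0.33 ± 0.14. The call of BMF was lost in several other fits, and its log2 fold change was 0.14 by library totals.

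Targets of NRF2 moved in both directions. Of the NRF2 list, 11 of 22 tested members rose, 8 fell and 3 were not called, with a median log2 fold change of 0.51 (by library totals 12 rose and 6 fell, median 0.98). The members that rose included HMOX1, both chains of the iron store ferritin, and genes of the glutathione and thioredoxin systems. FTH1, ferritin heavy chain, had 3195, 3973 and 4113 CPM at the high dose, against 1190.2, 1299 and 1249 CPM in vehicle (1.59 ± 0.21), and FTL, its light chain, had 3966, 3420.4 and 4183 CPM at the high dose, against 1407, 1332 and 1211 CPM in vehicle (1.55 ± 0.21). SRXN1, sulfiredoxin, which repairs peroxiredoxins, had 294, 319.8 and 322 CPM at the high dose, against 94.2, 89.9 and 94.8 CPM in vehicle (1.75 ± 0.077, adjusted p = 1.13e-21). TXNRD1, thioredoxin reductase 1, had 888, 955 and 899 CPM at the high dose, against 281, 289.7 and 292 CPM in vehicle (1.67 ± 0.093, adjusted p = 1.93e-18), and SLC7A11, the cystine importer that feeds glutathione synthesis, changed by 1.66 ± 0.22. GCLC and GCLM, the subunits of the rate-limiting enzyme of glutathione synthesis, changed by 1.52 ± 0.15 and 0.76 ± 0.084. OSGIN1, AKR1C1 and GSR also rose.

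The NRF2 targets that fell included enzymes of the pentose phosphate pathway, a source of NADPH. TKT, transketolase, had 151, 147 and 159.6 CPM at the high dose, against 533, 531 and 505 CPM in vehicle (-1.78 ± 0.087), and TALDO1 and PGD changed by -1.06 ± 0.15 and -0.83 ± 0.072. NQO1, the quinone reductase often read as the standard NRF2 target, had 95.8, 104 and 102 CPM at the high dose, against 167, 166 and 160.4 CPM in vehicle (-0.70 ± 0.13). NFE2L2, which encodes NRF2 itself, changed by 0.38 ± 0.11. At the low dose 3 members of the list were higher than vehicle and none was lower.

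The promoter of TXNRD1 is shown for its antioxidant response element, searched as TGACNNNGC on both strands of the windows. The element was found in 4 of the 16 NRF2 target promoters in the table. By comparison, 13.6% of all 27305 promoters held it, and 15.0% of the 12495 promoters of tested genes. With TMM, of these 4 genes TXNRD1 and GCLM rose (1.67 and 0.76) and PGD and ME1 fell (-0.83 and -0.37). The ME1 change was smaller than the shift of the all-gene median by library totals, from 0.027 to 0.49. The TXNRD1 stretch is chr12:104215529-104215798, plus strand, with both matches in capitals, the second of them on the other strand.
TXNRD1: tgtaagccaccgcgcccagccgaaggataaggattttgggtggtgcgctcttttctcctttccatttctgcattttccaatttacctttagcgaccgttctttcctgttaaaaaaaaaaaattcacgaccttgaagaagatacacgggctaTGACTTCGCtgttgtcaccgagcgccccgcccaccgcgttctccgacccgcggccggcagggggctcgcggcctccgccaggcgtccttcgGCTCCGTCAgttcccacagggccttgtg

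Among metallothioneins and zinc-responsive genes, 4 of 7 tested members rose, 1 fell and 2 were not called, with a median log2 fold change of 0.78 (by library totals 4 rose and 0 fell, median 1.24). SLC30A1, the zinc exporter, had 169, 167 and 146 CPM at the high dose, against 64.2, 70.2 and 68.3 CPM in vehicle (1.25 ± 0.24) and was also called against the low dose. MT2A, MT1E and MT1X, which bind zinc and copper, were higher than vehicle by 0.87 ± 0.25, 0.85 ± 0.28 and 0.62 ± 0.24, but differed from the low dose by 0.32, 0.19 and 0.19, with none of the 3 called. The call of MT1X against vehicle was lost in 7 of the other fits, 5 of them without a single library, and that of MT1E without vehicle library 3. SLC39A10, a zinc importer, fell (-0.77 ± 0.21) and was not called by library totals. Among targets of the aryl hydrocarbon receptor AhR, 2 of 7 tested members rose, 1 fell and 4 were not called, with a median log2 fold change of -0.045 (by library totals 2 rose and 1 fell, median 0.43). TIPARP, an AhR-induced ADP-ribosyltransferase, rose against vehicle (0.84 ± 0.21) without a call against the low dose, and ALDH3A1, an aldehyde dehydrogenase, fell (-1.71 ± 0.33).

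With TMM, most genes of the chaperone and proteasome lists fell. Among endoplasmic reticulum chaperones, 2 of 19 tested members rose, 13 fell and 4 were not called, with a median log2 fold change of -0.69 (by library totals 4 rose and 8 fell, median -0.22). HSPA5, the Hsp70 chaperone BiP, had 751, 756 and 736 CPM at the high dose, against 3416, 3537 and 3488 CPM in vehicle (-2.22 ± 0.10, adjusted p = 6.77e-21), HYOU1 changed by -2.03 ± 0.13, and HSP90B1, the Hsp90 chaperone GRP94, had 414, 416 and 404 CPM at the high dose, against 1541, 1586 and 1537 CPM in vehicle (-1.92 ± 0.098). The 2 members that rose were XBP1, the transcription factor of the unfolded protein response, with 159, 176 and 176 CPM at the high dose, against 121, 117 and 121 CPM in vehicle (0.51 ± 0.096), and DNAJB9, a co-chaperone, with 69.9, 67.1 and 63.5 CPM at the high dose, against 26.2, 24.5 and 25.5 CPM in vehicle (1.40 ± 0.10).

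Promoters of 3 of these genes are shown because all hold the endoplasmic reticulum stress element (ERSE), searched as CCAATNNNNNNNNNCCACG on both strands, although 2 of the genes fell and XBP1 rose. The element was found in 6 of the 18 promoters of the list in the table. By comparison, 0.0806% of all 27305 promoters held it, and 0.112% of the 12495 promoters of tested genes. HSPA5, HSP90B1, CALR, CANX and CRELD2 hold it and fell. The stretches are chr9:125241324-125241593 on the minus strand, chr12:103930160-103930429 on the plus strand and chr22:28800550-28800819 on the minus strand, with the element in capitals and 1 of the 2 matches of HSP90B1 on the other strand.
HSPA5: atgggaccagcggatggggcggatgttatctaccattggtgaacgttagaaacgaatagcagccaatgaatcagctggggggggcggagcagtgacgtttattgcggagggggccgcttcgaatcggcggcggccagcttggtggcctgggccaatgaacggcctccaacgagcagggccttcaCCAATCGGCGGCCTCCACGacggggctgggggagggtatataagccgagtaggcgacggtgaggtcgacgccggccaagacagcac
HSP90B1: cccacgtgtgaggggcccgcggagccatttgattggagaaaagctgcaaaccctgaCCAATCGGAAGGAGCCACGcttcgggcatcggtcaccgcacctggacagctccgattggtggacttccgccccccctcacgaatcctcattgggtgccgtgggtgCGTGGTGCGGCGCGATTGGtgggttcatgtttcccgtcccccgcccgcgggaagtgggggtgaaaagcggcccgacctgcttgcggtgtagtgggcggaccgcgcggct
XBP1: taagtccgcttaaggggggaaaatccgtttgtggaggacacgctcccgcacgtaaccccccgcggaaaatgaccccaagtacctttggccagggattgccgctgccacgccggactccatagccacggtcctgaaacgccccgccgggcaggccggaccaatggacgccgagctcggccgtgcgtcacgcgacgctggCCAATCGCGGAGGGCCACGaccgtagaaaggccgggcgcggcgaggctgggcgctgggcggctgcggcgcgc

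Among cytosolic heat shock chaperones, 0 of 18 tested members rose, 15 fell and 3 were not called, with a median log2 fold change of -1.41 (by library totals 3 rose and 12 fell, median -0.94). HSP90AB1 had 320.1, 312 and 327 CPM at the high dose, against 1687, 1663 and 1745 CPM in vehicle (-2.41 ± 0.065, adjusted p = 1.46e-27), HSP90AA1, its stress-inducible copy, changed by -2.15 ± 0.085, and HSPA8, the constitutive Hsp70, by -2.11 ± 0.068. Among proteasome subunits, 0 of 31 tested members rose, 26 fell and 5 were not called, with a median log2 fold change of -0.70 (by library totals 3 rose and 12 fell, median -0.23). PSMD1 and PSMD2, scaffold subunits of the regulatory particle, changed by -1.76 ± 0.092 and -1.71 ± 0.11, and PSMC3, an ATPase of its base, by -1.24 ± 0.21. Among lysosome and autophagy genes, 4 of 24 tested members rose, 13 fell and 7 were not called, with a median log2 fold change of -0.35 (by library totals 10 rose and 8 fell, median 0.12). ATP6V1A, a proton pump subunit, and LAMP2, a membrane protein of lysosomes, fell, with log2 fold changes of -1.20 ± 0.16 and -1.14 ± 0.15, whereas the autophagy genes GABARAPL1, WIPI1 and MAP1LC3B and the cholesterol exporter NPC1 rose by 0.78 ± 0.09, 0.53 ± 0.072, 0.31 ± 0.074 and 0.58 ± 0.19. The rise of MAP1LC3B was not called against the low dose, and that of NPC1 was lost with the length slope as a covariate.

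Of the cytosolic aminoacyl-tRNA synthetases, all 20 tested members fell, with a median log2 fold change of -1.11 (by library totals 0 rose and 20 fell, median -0.64). VARS1 had 37.9, 37.3 and 39.9 CPM at the high dose, against 216, 209.9 and 210.0 CPM in vehicle (-2.47 ± 0.087, adjusted p = 1.34e-24), EPRS1 changed by -2.22 ± 0.08 and WARS1 by -1.73 ± 0.068. Among targets of ATF4, the factor of the integrated stress response, 5 of 24 tested members rose, 13 fell and 6 were not called, with a median log2 fold change of -0.39 (by library totals 10 rose and 10 fell, median 0.085). PHGDH, the first enzyme of serine synthesis, had 6.53, 6.85 and 6.20 CPM at the high dose, against 40.7, 36.8 and 36.9 CPM in vehicle (-2.55 ± 0.19), ALDH18A1, of proline synthesis, changed by -1.87 ± 0.096, and ASNS, asparagine synthetase, by -1.22 ± 0.12. ATF4 itself rose (0.57 ± 0.11), as did ATF3 (0.85 ± 0.16), CEBPB (0.85 ± 0.29), CEBPG (0.47 ± 0.10) and GDF15, while DDIT3, the pro-apoptotic factor CHOP, was not called (0.021 ± 0.26, adjusted p = 0.959). The call of CEBPB was lost without high-dose library 2.

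Among amino acid transporters, 2 of 13 tested members rose, 5 fell and 6 were not called, with a median log2 fold change of -0.38 (by library totals 6 rose and 3 fell, median 0.089). SLC1A3, the glial glutamate transporter, had 7.15, 7.85 and 7.77 CPM at the high dose, against 31.9, 32.0 and 33.8 CPM in vehicle (-2.10 ± 0.17), SLC1A5, a glutamine transporter, changed by -1.01 ± 0.10, and SLC6A9, a glycine transporter, by -0.80 ± 0.092. SLC3A2, the partner chain of SLC7A11, rose (0.66 ± 0.20), as did SLC43A1 (0.62 ± 0.18). Among ribosomal proteins, 0 of 29 tested members rose, 21 fell and 8 were not called, with a median log2 fold change of -0.83 (by library totals 1 rose and 10 fell, median -0.36), among them RPL8 (-1.41 ± 0.23) and RPL4 (-1.23 ± 0.10). Among ribosome biogenesis genes, 0 of 21 tested members rose, 16 fell and 5 were not called, with a median log2 fold change of -0.67 (by library totals 5 rose and 9 fell, median -0.20), led by BOP1 (-1.68 ± 0.25), RRP12 (-1.54 ± 0.064) and NCL, nucleolin (-1.51 ± 0.073). EEF1A1, the elongation factor that brings aminoacyl-tRNA to the ribosome, had 1579, 1630.1 and 1529 CPM at the high dose, against 5526, 5365 and 5471 CPM in vehicle (-1.79 ± 0.091). The sequences of EEF1A1, RPL8 and RPL4 have processed copies elsewhere in the genome, which can share reads with them.

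Genes of lipid synthesis fell, while PLIN2, ANGPTL4 and PDK4, which respond to fatty acids, rose. Among genes of cholesterol synthesis and uptake, 1 of 25 tested members rose, 19 fell and 5 were not called, with a median log2 fold change of -0.96 (by library totals 2 rose and 13 fell, median -0.49). DHCR7, which catalyses the last step to cholesterol, had 9.70, 8.73 and 9.42 CPM at the high dose, against 36.5, 38.8 and 37.4 CPM in vehicle (-2.02 ± 0.11), and LSS, lanosterol synthase, changed by -1.79 ± 0.076. SC5D, a sterol desaturase, rose against vehicle (0.44 ± 0.14), a call lost with the length slope as a covariate, without a call against the low dose. Among genes of fatty acid synthesis and desaturation, 0 of 10 tested members rose, 8 fell and 2 were not called, with a median log2 fold change of -1.11 (by library totals 1 rose and 5 fell, median -0.64). FASN, fatty acid synthase, had 61.0, 62.0 and 63.8 CPM at the high dose, against 343, 357 and 356 CPM in vehicle (-2.50 ± 0.16), ACLY, which supplies cytosolic acetyl-CoA, changed by -2.08 ± 0.13, and FADS2, a desaturase, by -1.82 ± 0.083.

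Among lipid droplet and fatty acid-responsive genes, 4 of 11 tested members rose, 5 fell and 2 were not called, with a median log2 fold change of -0.41 (by library totals 5 rose and 2 fell, median 0.063). PLIN2, the coat protein of lipid droplets, had 219.8, 214 and 197 CPM at the high dose, against 64.4, 56.3 and 60.1 CPM in vehicle (1.80 ± 0.083, adjusted p = 4.44e-21), ANGPTL4, an inhibitor of lipoprotein lipase, had 61.9, 62.0 and 63.4 CPM at the high dose, against 16.3, 11.8 and 13.6 CPM in vehicle (2.17 ± 0.22), and PDK4, which blocks pyruvate dehydrogenase, had 5.69, 5.18 and 4.41 CPM at the high dose, against 0.866, 0.852 and 0.976 CPM in vehicle (2.50 ± 0.31). HADHA, of mitochondrial beta-oxidation, changed by -1.86 ± 0.074 and PLIN3 by -1.77 ± 0.17. Among LXR targets, 1 of 8 tested members rose, 3 fell and 4 were not called, with a median log2 fold change of -0.36 (by library totals 4 rose and 2 fell, median 0.11). SREBF1, the factor that drives lipogenic genes, fell (-1.33 ± 0.089), as did LPCAT3 (-1.0 ± 0.11), whereas ABCA1, the cholesterol exporter, rose (0.86 ± 0.31). The ABCA1 call was lost without high-dose library 1 or vehicle library 1. It was also lost with no low-count filter and with the slope on transcript length as a covariate.

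Most genes of the hypoxia and glycolysis list fell. Among hypoxia and glycolysis genes, 3 of 27 tested members rose, 20 fell and 4 were not called, with a median log2 fold change of -0.96 (by library totals 7 rose and 16 fell, median -0.49). PKM, pyruvate kinase, had 658, 651 and 698 CPM at the high dose, against 3672, 3598 and 3562 CPM in vehicle (-2.43 ± 0.12), ENO1, enolase, had 526, 536 and 562 CPM at the high dose, against 3039, 2728 and 2754 CPM in vehicle (-2.39 ± 0.18), and PGK1, phosphoglycerate kinase, changed by -2.36 ± 0.12. The hypoxia-induced genes ADM, the vasodilator peptide adrenomedullin, and VEGFA, the vascular growth factor, rose instead, ADM with 45.0, 40.1 and 39.0 CPM at the high dose, against 11.0, 11.2 and 10.7 CPM in vehicle (1.92 ± 0.10) and VEGFA by 0.53 ± 0.094. Among nuclear subunits of complex I, 0 of 21 tested members rose, 14 fell and 7 were not called, with a median log2 fold change of -0.61 (by library totals 0 rose and 4 fell, median -0.14), among them NDUFB8 (-1.35 ± 0.26) and NDUFA9 (-1.15 ± 0.14).

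With TMM, most mitochondrially encoded genes were lower than in vehicle, and none was called against the low dose. Of these genes, 0 of 13 tested members rose, 10 fell and 3 were not called, with a median log2 fold change of -0.79 (by library totals 0 rose and 2 fell, median -0.32), but against the low dose none of the 13 was called and the median was 0.05. MT-ND4, a complex I subunit, had 7435, 6201 and 7828 CPM at the high dose, against 14183, 14763 and 14965 CPM in vehicle, a log2 fold change of -1.03 ± 0.31 against vehicle and 0.015 against the low dose, and its call against vehicle was lost by library totals. Mitochondrial transcripts took 9.15%, 7.82% and 9.39% of counts at the high dose, against 10.1%, 10.3% and 10.2% in vehicle, a difference of -1.39 percentage points (exact two-sided permutation p = 0.1). In the low-dose libraries they took 7.33%, 5.82% and 6.66%, so the high dose lay above the low dose by 2.18 percentage points (exact two-sided permutation p = 0.1, the smallest possible). The share of the high dose thus lay between those of its own low dose and of vehicle, with no overlap on either side.

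Signalling genes moved in both directions. Among immediate early and ERK feedback genes, 10 of 22 tested members rose, 6 fell and 6 were not called, with a median log2 fold change of 0.33 (by library totals 15 rose and 3 fell, median 0.80). DUSP1, a phosphatase of MAP kinases, had 172, 192 and 175 CPM at the high dose, against 44.7, 42.8 and 42.8 CPM in vehicle (2.05 ± 0.074, adjusted p = 3.20e-24), PHLDA1 had 1001, 1066 and 1006 CPM at the high dose, against 251, 238 and 270.1 CPM in vehicle (2.02 ± 0.095), and DUSP5, DUSP6 and SPRY2, which damp ERK signalling, changed by 1.67 ± 0.12, 1.29 ± 0.12 and 1.15 ± 0.12. EGR1, an immediate early transcription factor, had 29.1, 24.4 and 26.5 CPM at the high dose, against 147, 165 and 167 CPM in vehicle (-2.58 ± 0.34), and FOS changed by -1.60 ± 0.24. EGR1 was also lower at the low dose (-1.43 from vehicle).

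Among NF-kB targets and chemokines, 7 of 19 tested members rose, 6 fell and 6 were not called, with a median log2 fold change of 0.16 (by library totals 9 rose and 3 fell, median 0.63). LIF, a cytokine of the interleukin-6 family, had 99.7, 93.4 and 97.7 CPM at the high dose, against 23.1, 20.7 and 22 CPM in vehicle (2.14 ± 0.079, adjusted p = 3.73e-24), IL6 had 12.5, 9.76 and 9.05 CPM at the high dose, against 3.42, 3.41 and 3.82 CPM in vehicle (1.56 ± 0.16), and CXCL3 changed by 1.79 ± 0.32. Among interferon response genes, 4 of 22 tested members rose, 8 fell and 10 were not called, with a median log2 fold change of -0.11 (by library totals 10 rose and 5 fell, median 0.36). IFIT2 had 51.2, 51.5 and 53.4 CPM at the high dose, against 8.0, 6.21 and 7.34 CPM in vehicle, IFIT3 changed by 1.22 ± 0.16 and IRF1 by 0.74 ± 0.12, whereas OAS3 and IRF7 fell, with log2 fold changes of -1.40 ± 0.21 and -1.28 ± 0.24. Of the genes of MHC class I antigen presentation, all 13 tested members fell, with a median log2 fold change of -0.91 (by library totals 0 rose and 6 fell, median -0.44), led by HLA-B (-1.54 ± 0.24), ERAP1 (-1.50 ± 0.24) and HLA-C (-1.33 ± 0.14). HLA genes are near-identical and polymorphic, so their single values are uncertain.

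Among FOXO targets, 7 of 14 tested members rose, 4 fell and 3 were not called, with a median log2 fold change of 0.37 (by library totals 10 rose and 1 fell, median 0.84). KLF2 had 14.9, 16.4 and 18.3 CPM at the high dose, against 3.13, 3.81 and 4.33 CPM in vehicle (2.14 ± 0.25) and FBXO32, the ubiquitin ligase atrogin-1, had 250.5, 252 and 256 CPM at the high dose, against 81.4, 87.4 and 84.8 CPM in vehicle (1.58 ± 0.074), while PINK1, a kinase of mitophagy, fell (-1.37 ± 0.09). Among glucocorticoid targets, 4 of 10 tested members rose, 2 fell and 4 were not called, with a median log2 fold change of 0.054 (by library totals 7 rose and 1 fell, median 0.52), with ERRFI1, an inhibitor of EGFR, at 1.11 ± 0.22, SGK1 at 0.56 ± 0.085, and GLUL, glutamine synthetase, at -0.88 ± 0.079. Among TGF-beta and BMP targets, 4 of 16 tested members rose, 6 fell and 6 were not called, with a median log2 fold change of 0.08 (by library totals 9 rose and 3 fell, median 0.55). LTBP2, of the latent TGF-beta binding protein family, had 12.2, 10.4 and 11.2 CPM at the high dose, against 50.1, 49.7 and 53 CPM in vehicle (-2.17 ± 0.21), and TGFBR1, a TGF-beta receptor, had 214, 226 and 201 CPM at the high dose, against 74.4, 83.5 and 86.3 CPM in vehicle and rose (1.39 ± 0.18). Among circadian clock genes, 4 of 15 tested members rose, 3 fell and 8 were not called, with a median log2 fold change of 0.0047 (by library totals 8 rose and 2 fell, median 0.47), so that both shares were near those of all tested genes. The clock output factors HLF and DBP fell, with log2 fold changes of -1.91 ± 0.19 and -1.61 ± 0.25, while the clock activator BMAL1 and the repressor NR1D2 rose by 0.80 ± 0.17 and 0.79 ± 0.22.

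Among axon guidance genes, 2 of 21 tested members rose, 15 fell and 4 were not called, with a median log2 fold change of -0.88 (by library totals 4 rose and 9 fell, median -0.41). The secreted repellent SLIT2 had 4.99, 3.82 and 3.93 CPM at the high dose, against 24.3, 24.4 and 24.5 CPM in vehicle (-2.52 ± 0.32). Its relative SLIT3 had 38.2, 35.4 and 40.7 CPM at the high dose, against 127, 129 and 132 CPM in vehicle (-1.77 ± 0.21), and EPHB3, an ephrin receptor, changed by -1.69 ± 0.18. The ephrin ligands EFNA1 and EFNB2 rose by 0.66 ± 0.13 and 0.49 ± 0.16, and the call of EFNB2 was lost with the length slope as a covariate. Among astrocyte and glioma markers, 1 of 12 tested members rose, 7 fell and 4 were not called, with a median log2 fold change of -0.71, and their summed level was 2184 to 2408 CPM at the high dose, against 8679 to 8910 CPM in vehicle, most of it VIM and CD44. The summed levels of other marker lists were also lower at the high dose. Leukocyte markers, with 0 of 4 tested higher and 2 lower, summed to 2.24 to 2.62 CPM at the high dose, against 13.9 to 14.8 CPM in vehicle, nearly all PTPRC and CSF1R. Epithelial markers, with 1 of 5 higher and 3 lower, summed to 31.5 to 32.3 CPM at the high dose, against 145 to 157 CPM in vehicle. KRT18 made up most of the sum in vehicle but not at the high dose, and EPCAM stayed near 0. The marker that rose was CLDN4, which averaged 7.86 CPM at the high dose and 2.61 CPM in vehicle. Neuronal markers, with 0 of 6 higher and 4 lower, summed to 32.4 to 34.6 CPM at the high dose, against 65.8 to 68.4 CPM in vehicle. Endothelial markers, with 0 of 3 higher and 2 lower, summed to 26.1 to 30.7 CPM at the high dose, against 37.0 to 41.9 CPM in vehicle. Hepatocyte markers, with both tested members lower, summed to 1.36 to 1.79 CPM at the high dose, against 6.61 to 7.30 CPM in vehicle. The part of these markers in the results was not tested.

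Most ZNF genes, which encode zinc finger proteins that often act as transcriptional repressors, rose. The family was chosen after its values were seen. Of 481 tested, 360 were higher, 14 lower and 107 not called, with a median log2 fold change of 0.83, against 0.027 over all tested genes. By library totals 440 were higher and 3 lower. Against the low dose 367 were higher and 10 lower, while at the low dose 7 were higher than vehicle and 2 lower. Leaving aside those whose mean log2 CPM was under 2, ZNF850 and ZNF239 had the largest rises. ZNF850 had 21.3, 21.2 and 19 CPM at the high dose, against 4.99, 5.07 and 4.58 CPM in vehicle (2.07 ± 0.13), and ZNF239 had 23.9, 25.6 and 25.3 CPM at the high dose, against 6.47, 6.69 and 6.53 CPM in vehicle (1.93 ± 0.10). ZNF genes arose by duplication and some share reads with a copy. Their median level, 3.33 as mean log2 CPM, was below that of protein-coding genes, 4.66, and of all genes in groups 5 and 6 by level 38.6% and 38.4% were higher.

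**Figure D5:**
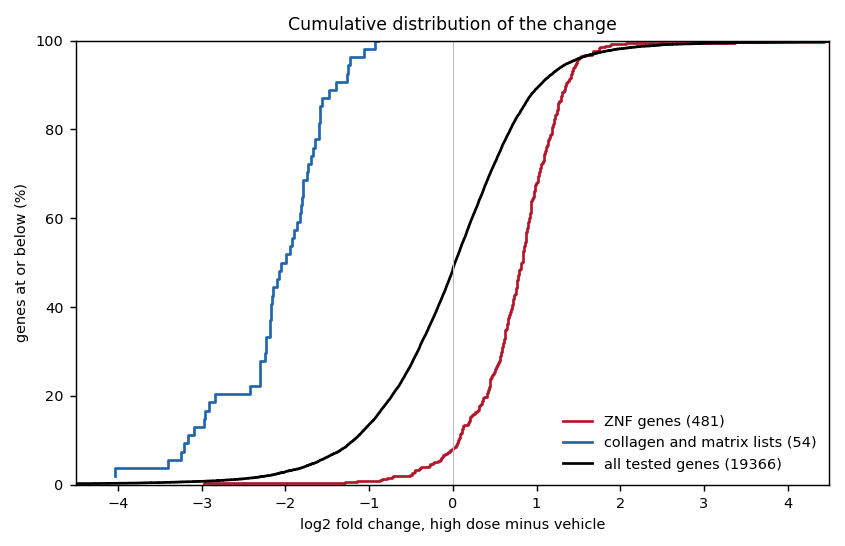
Cumulative share of genes (vertical axis, %) by log2 fold change of the high dose minus vehicle (horizontal axis) for the 481 ZNF genes (red), the 54 tested genes of the collagen and matrix lists (blue) and all 19366 tested genes (black). The ZNF curve lies right of that of all genes, with a median of 0.83, and the collagen and matrix curve lies left of it.

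For 131 genes (0.676%) both doses were called against vehicle in the same direction and the doses were not called apart. The largest change of this kind was that of TUBA1B-AS1, an antisense transcript of the tubulin gene TUBA1B. TUBA1B-AS1 had 0.182, 0.152 and 0.0569 CPM at the high dose, against 136, 136 and 135 CPM in vehicle. All 18 libraries of set 13 were at or under 0.785 CPM, while single libraries of sets 11, 12 and 14 reached 256, 655 and 202 CPM. Whether counting used strand is not stated, so reads of this transcript and of TUBA1B cannot be told apart. SNHG6, a small nucleolar RNA host gene, was 1.09 ± 0.20 from vehicle at the high dose and 0.78 at the low dose, PTPN23, a phosphatase-like endosomal protein, -0.95 ± 0.15 and -0.64, and MT-ATP8, a subunit of ATP synthase, -1.75 ± 0.41 and -1.55.

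Set beside Saengmaek-san at the same dose and in the same library set, Guibi-tang differed in 9997 genes (51.6%), with 4784 (24.7%) higher and 5213 (26.9%) lower, or 7943 and 3129 by library totals. Library 2 of Saengmaek-san stood apart from libraries 1 and 3 of its group, with a chi-square per degree of freedom of 39.7 and 21.9, and without it the count was 9546. The leading genes differed here too. HMOX1 was 2.97 log2 units higher than with Saengmaek-san (adjusted p = 9.15e-25), GDF15 3.00 (adjusted p = 1.46e-17), TNC -3.32 (adjusted p = 1.25e-11) and COL1A2 -3.15 (adjusted p = 1.20e-22). Of the 29 collagen genes all 29 were lower than with Saengmaek-san, as were 24 of 25 matrix genes, 20 of 20 aminoacyl-tRNA synthetases and 31 of 31 proteasome subunits. TXNIP, a glucose-responsive arrestin, was -3.80 (adjusted p = 4.51e-25) from Saengmaek-san and -0.45 ± 0.12 from vehicle (0.022 by library totals), and ANGPTL4 0.48 (adjusted p = 0.0475) from Saengmaek-san, against 2.17 ± 0.22 from vehicle. MT2A and MT-ND4 were not called between the formulas.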

How the data were processed

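RNA was sequenced from 60 libraries of SW1783 cells. The authors deposited 1 table of expected counts per gene. Per the submitters' processing notes the tools were FastQC 0.11.9, Trim Galore 0.6.5, STAR 2.7.3a and RSEM 1.3.3 with hg38/GRCh38, while their settings, the strand setting of counting and the annotation release are not given in the sources used here. Of 60675 gene IDs, 41209 matched a symbol in the gene name table, and coordinates are those of GENCODE 29.

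From these, expected counts were rounded and genes kept by filterByExpr (minimum count 10, minimum total 15), leaving 19366. edgeR 4.0.16 (R 4.3.3) fitted all 60 libraries with TMM scaling and 1 mean per extract and dose, which left 35 residual degrees of freedom, and quasi-likelihood tests were adjusted by the Benjamini-Hochberg method over all tested genes. A gene was called at an adjusted p under 0.05. Fold changes are log2 with their SE, and levels are CPM scaled by TMM. CPM is not divided by length, so levels are compared between samples and not between genes. Single library measures were compared by an exact permutation test. The fit was run on simulated data with 200 changed genes of random direction. So few changes of random direction cannot test the choice of scale, and no result rests on this run. Library names of 1 set may mark a shared run, which the labels do not say.

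The members, gene lists and tests were chosen with earlier results of these data known. Genes named were the 12 largest rises and 12 largest falls at a mean log2 CPM of at least 2, without overlap and with the same call against the low dose. Added to these were up to 3 called members of each list with the largest change, the 6 genes with most counts among those changed by at least 1 log2 unit, the 4 largest changes present at the low dose, and members of a list with 5 or fewer called in 1 direction. SRXN1, TXNRD1, SLC7A11, FTH1, FTL, OSGIN1, GCLC, GCLM, AKR1C1, GSR, TALDO1, PGD, NQO1, ME1, PLK1, CCNB2, CDK1, CCNE1, CCNE2, E2F1, GINS1, POLE2, RFC4, CDKN1A, ASNS, DDIT3, DUSP5, DUSP6, SPRY2 and FOS lie outside this rule and were named after their values were seen. Alternatives were RLE factors, library totals, no filter, a replicate block, the length slope as a covariate, DESeq2 1.42.0, the compared groups alone, Okbyeongpung-san as 1 group, and leaving out each library. The vehicle concentration is 0.1% DMSO in the sample records, while the series text gives another value. Some genes chosen by this rule are not reported here. Hot-water extracts named in the labels were not analysed here.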

Additional observations from a re-analysis of the deposited data

How the results depend on the processing

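The counts of genes called for the high dose against vehicle, the low dose and Saengmaek-san stayed within 1.5 times under RLE factors, library totals, no filter, the length slope, DESeq2, the compared groups alone and Okbyeongpung-san as 1 group. Leaving out single libraries gave 8771 to 8935 calls against vehicle, 8734 to 9239 against the low dose, 8797 to 9546 against Saengmaek-san and 7394 to 7817 dose-dependent genes. The count for the low dose against vehicle, 477, depended on the fit. It was 899 with DESeq2, 3302 with the length slope as a covariate, 815 by library totals, 304 with the compared groups alone, 288 with Okbyeongpung-san as 1 group and 56 with no filter, and 53 to 326 when a library was left out. The cause was not tested. Same-numbered libraries did not deviate together against vehicle (correlations -0.27, -0.077 and -0.13), and against the low dose the correlations were 0.39, 0.31 and 0.044. The third is under 0.1, so the numbers were not taken to pair the libraries, although 2 of the 3 pairs with the low dose deviated together. With the replicate block the counts were 9718 against vehicle, 9894 against the low dose, 9970 against Saengmaek-san, 598 for the low dose and 8199 dose-dependent. Of 185 named genes, 159 kept their call and direction against vehicle under every alternative. By library totals 6 falls changed sign, CPT1A to 0.063, ACSL3 to 0.043, SLC1A4 to 0.089, TXNIP to 0.022, FKBP5 to 0.081 and BMF to 0.14. The mitochondrial share differed by -1.69 to -0.903 percentage points when a library was left out. Library totals of 21378428 to 27413214 give few counts to genes under 1 CPM, and their values are the least precise.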

Other observations

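Gene families were counted after their values were seen and are given without a test, beside 23.6% higher and 26.6% lower among all tested genes. In group 10 by level, the most abundant genes, 8.11% were higher and 64.6% lower, and the families were not matched for level. The shares are given with TMM only. Of 35 HOX genes, which pattern the body axis, 48.6% were higher at the high dose than in vehicle and 0% lower. Of 20 dual-specificity phosphatases 60% were higher and 0% lower, of 25 KLF and SP factors 44% and 8%, and of 27 small nucleolar RNA host genes 33.3% and 7.41%. Of 7 TBX genes 28.6% were higher, near the share of all tested genes, and 0% lower. Of 9 subunits of the chaperonin CCT, which folds actin and tubulin, 0% were higher and 88.9% lower. The shares were 9.09% and 65.5% for 55 translation initiation factor genes, 0% and 57.9% for 19 ATP synthase genes, 6.06% and 57.6% for 33 coatomer and SEC genes, and 0% and 46.7% for 15 keratins. Mixed families were 34 kinesins with 20.6% higher and 41.2% lower, 12 RNA polymerase II subunits with 16.7% and 41.7%, and 30 Mediator subunits with 40% and 23.3%.

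The median log2 fold change of the high dose against vehicle was -0.074 over 14308 protein-coding genes, 0.38 over 1589 antisense genes, 0.33 over 1104 lincRNA genes and 0.71 over 225 sense intronic transcripts. Of the sense intronic transcripts 27.6% were higher and 0.889% lower, and their median at the low dose against vehicle was 0.22. Protein-coding genes were also divided by median transcript length into 4 groups of 3577. The group of the longest transcripts had a median of 0.067 and that of the shortest -0.20.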
